A study of Mus musculus with 20 samples.

Results

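The genes described here carry out base excision repair and the poly(ADP-ribose) polymerase (PARP) response to broken DNA. They were chosen by gene name, as every non-control probe of the array annotated to Parp1, Parp2, Xrcc1, Mutyh, Ogg1, Ung, Apex1, Lig1 or Lig3. All 9 genes were present, with 11 of the 39429 non-control probes. Mutyh and Lig3 had a pair of probes each, and the brighter of a pair is called probe 1.

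Base excision repair removes single damaged bases. A DNA glycosylase cuts out the base, the nuclease Apex1 opens the strand at the empty site, a polymerase fills the gap and a ligase seals it. Parp1 and Parp2 sense strand breaks and build poly(ADP-ribose) chains that draw in the scaffold Xrcc1 with its partner ligase Lig3. X-rays make both damaged bases and strand breaks, and lymphocytes in blood are among the cells most easily killed by them.

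RNA came from whole blood drawn by cardiac puncture 24 h after whole-body exposure to 7 Gy of X-rays, or after a sham exposure (0 Gy). The mice were male littermates of 8 to 10 weeks of age, either wild-type (WT) C57BL/6 or Il10-/- (B6.129P2-Il10tm1Cgn/J), which carry a disrupted gene for an anti-inflammatory cytokine in every cell and were bred from heterozygous parents on a C57BL/6 background. The 20 samples fall into 4 groups of 5: WT at 0 Gy, WT at 7 Gy, Il10-/- at 0 Gy and Il10-/- at 7 Gy, each on 1 single-colour array. Globin transcripts were depleted from every sample.

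Levels are given as log2 intensity minus the median of all non-control probes on the same array, so that a value of 0 is the median probe. A level was compared between groups for the same probe and never between probes. A probe was called when limma gave p under 0.001 with a Benjamini-Hochberg adjusted p under 10% over the 18655 probes that passed both filters. A probe was removed where at least 25% of arrays marked it as an outlier or as no brighter than background, or where fewer than 20% of arrays were at least 1.5-fold from its own median. All 11 probes passed the filter on background and 9 passed both, for 7 of the 9 genes. Xrcc1 and Ogg1 moved too little for the second filter, and their adjusted p-values come from the fit of 23069 probes without it.

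Several facts of the whole series bear on these genes. The share of spots well above background ranged from 29.9% to 57.8% of spots per array, and was lowest on WT 0 Gy replicate 5, followed by Il10-/- 7 Gy replicate 3 at 34.6%. Replicates 1 and 2 of each group differed by a robust SD of 0.209 to 0.313 (log2), which was 0.898 to 1.25 times the noise of repeated spots, against 1.05 to 4.09 times for the other 36 pairs. They lay on different slides, and nothing in the labels says they share an animal, so each was kept as a sample and results with both averaged stand beside the calls. The Il10 probe read 2.75 ± 0.31 (SD, n = 5) at 0 Gy in mice labelled Il10-/- and -1.54 ± 0.45 (SD, n = 5) in mice labelled WT, which goes against a loss of signal. Whether that probe lies in the altered part of the gene was not examined, and every genotype below is the label's.

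The sequences of 4 probes are shown because they measured the genes that passed the test. Parp1 (chromosome 1, 182530581 to 182530639 of the mm9 build, as the array files give it) was read by this probe, printed 5′ to 3′.
Parp1 probe: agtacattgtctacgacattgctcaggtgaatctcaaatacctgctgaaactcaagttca
Mutyh probes lie on chromosome 4, probe 1 from 116491926 to 116491985 and probe 2 from 116490399 to 116490540 of mm9. The 60 bases of probe 2 spread over 142 bases of the genome, whereas those of probe 1 are contiguous. No part is marked by capitals, since the whole probe binds.
Mutyh probe 1: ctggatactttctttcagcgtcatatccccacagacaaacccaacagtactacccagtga
Mutyh probe 2: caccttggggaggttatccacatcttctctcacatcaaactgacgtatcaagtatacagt
Ung was read at chromosome 5, 114588731 to 114588790 of mm9. Of its 60 bases the last 34 are an unbroken run of alternating G and T, of which the final 30 are printed with the repeat in capitals.
Ung probe, last 30 bases: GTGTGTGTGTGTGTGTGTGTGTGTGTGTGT
None of the other 10 probes held such a run, their longest being 3 bases.

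Parp1, the main sensor of DNA strand breaks, fell after irradiation in Il10-/- mice. Its levels at 0 Gy were 3.33, 3.73, 3.16, 3.40 and 2.85, and at 7 Gy they were 0.71, 1.62, 0.69, 0.66 and 1.42. Every irradiated array lay below every unirradiated one. At 7 Gy the spot was well above background on 3 of 5 arrays, so the irradiated levels are near the limit of measurement. The difference was -2.28 ± 0.27 (SE, log2), 4.85-fold lower, with an adjusted p of 0.000204 by limma and an exact two-sided permutation p of 0.00794 (n = 5 and 5), the smallest that this design allows. Parp1 was lower on the irradiated array of all 5 slides, and with the slide as a block its adjusted p was 0.00289. With replicates 1 and 2 averaged the difference was -2.26, adjusted p = 0.00182 by limma.

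In WT mice Parp1 read 3.54, 3.63, 3.83, 2.2 and 1.25 at 0 Gy, and 1.18, 1.68, 1.30, 1.10 and 1.10 at 7 Gy. Replicate 5 at 0 Gy, the array with the fewest spots above background, reached down among the irradiated arrays, and its Parp1 spot was not well above background. The difference of -1.61 ± 0.49 (SE, log2) had an adjusted p of 0.035 by limma and an exact permutation p of 0.0238 (n = 5 and 5), and was not called because its unadjusted p missed 0.001. Without that array it was -2.02 with an adjusted p of 0.00358, and was called. The same direction was seen within all 5 slides. The difference between the genotypes' responses was -0.66 ± 0.57 (SE, log2), 95% interval -1.84 to 0.51, adjusted p = 0.77 by limma.

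Parp2, the second strand-break-activated PARP, had no called difference. Its levels in Il10-/- mice were 1.61, 2.02, 1.04, 1.67 and 0.58 at 0 Gy, and 0.14, 1.12, -0.01, -0.30 and 0.62 at 7 Gy, so the groups overlapped. The difference was -1.07 ± 0.34 (SE, log2), adjusted p = 0.0412 by limma. In WT mice it was -0.62 ± 0.49 (SE, log2), adjusted p = 0.435 by limma, and -1.04 without 0 Gy replicate 5, adjusted p = 0.061, still not called. Parp1 and Parp2 varied together among arrays of the same group: Pearson's r of their deviations from the group means was 0.96 over 20 arrays, a description with no test, in which weak and strong arrays are shared.

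Xrcc1, the scaffold that holds the repair enzymes at a break, had no called difference. It read 4.21, 4.38, 4.2, 4.52 and 4.16 in unirradiated Il10-/- mice and 3.63, 3.88, 3.49, 3.87 and 4.11 after 7 Gy. The groups did not overlap, but by a narrow margin, and the difference of -0.50 ± 0.19 (SE, log2) had an adjusted p of 0.0812 by limma, and was not called. In WT mice the difference was -0.16 with a 95% interval of -0.91 to 0.58.

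Mutyh, the glycosylase that removes adenine paired with oxidised guanine, fell in both genotypes by its brighter probe. In WT mice probe 1 read 2.13, 2.02, 1.96, 1.01 and 2.85 at 0 Gy, and -0.77, -0.27, 0.18, 0.12 and -0.28 at 7 Gy. In Il10-/- mice it read 1.72, 1.75, 1.65, 2.37 and 1.39 at 0 Gy, and 0.28, 0.43, -0.68, 0.66 and -0.16 at 7 Gy. No irradiated array reached the lowest unirradiated array of its genotype. The difference was -2.20 ± 0.40 (SE, log2) in WT mice, 4.58-fold lower, adjusted p = 0.0026 by limma. It was -1.67 ± 0.29 (SE, log2) in Il10-/- mice, 3.18-fold lower, adjusted p = 0.00256 by limma. Both had an exact permutation p of 0.00794 (n = 5 and 5), both held within all 5 slides, and both remained called with replicates 1 and 2 averaged. With quantile normalization the Il10-/- difference was -1.96 and was not called, adjusted p = 0.0176 by limma. Across alternatives the difference ran from -2.44 to -0.31 (log2) in WT mice and from -1.96 to -0.47 in Il10-/- mice. At 7 Gy the spot was well above background on 2 of 5 arrays in each genotype, so the irradiated levels are near the limit of measurement.

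Mutyh probe 2 was dimmer. In WT mice it read 0.41, 0.23, -0.04, 1.07 and -0.97 at 0 Gy, and -1.72, -2.29, -1.23, -1.43 and -1.11 at 7 Gy, again without overlap. It was well above background on 1 of 5 arrays at 0 Gy and on none at 7 Gy, so no fold is given. The measured difference was -1.70 ± 0.43 (SE, log2). That difference had an adjusted p of 0.0157 by limma, just outside the call at the unadjusted threshold, and was called without WT 0 Gy replicate 5 at an adjusted p of 0.00308. In Il10-/- mice probe 2 was well above background on 2 of 5 arrays at 0 Gy and on none at 7 Gy, so no fold is given there either. The measured difference in Il10-/- mice was -0.36 ± 0.37 (SE, log2), adjusted p = 0.507 by limma, and was not called. The probes of Mutyh thus did not give the same picture in Il10-/- mice.

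Ogg1, the glycosylase for oxidised guanine, showed no difference beyond the spread of its replicates. Its group means ran from 1.32 ± 0.27 (SD, n = 5) in unirradiated WT mice to 1.43 ± 0.25 (SD, n = 5) in irradiated WT mice, and no neighbouring groups in the order differed beyond their spread. The 95% interval of the 7 Gy difference was -0.58 to 0.79 in WT mice and -0.56 to 0.54 in Il10-/- mice.

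Ung, the glycosylase that removes uracil and takes part in antibody diversification in B cells, read lower after irradiation in Il10-/- mice. In Il10-/- mice its probe read 7.05, 7.32, 6.91, 7.06 and 7.68 at 0 Gy, and 5.92, 5.73, 5.82, 6.22 and 6.29 at 7 Gy, with no overlap. The difference was -1.21 ± 0.23 (SE, log2), 2.31-fold lower, adjusted p = 0.00375 by limma, and it was no longer called with replicates 1 and 2 averaged (adjusted p = 0.0315). In WT mice it read 7.05, 7.10, 7.45, 8.29 and 6.50 at 0 Gy, and 6.52, 6.55, 5.65, 6.48 and 6.4 at 7 Gy. Only replicate 5 at 0 Gy lay within the range of the irradiated arrays, and the difference of -0.96 ± 0.40 (SE, log2) had an adjusted p of 0.125 by limma.

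**Figure D1:**
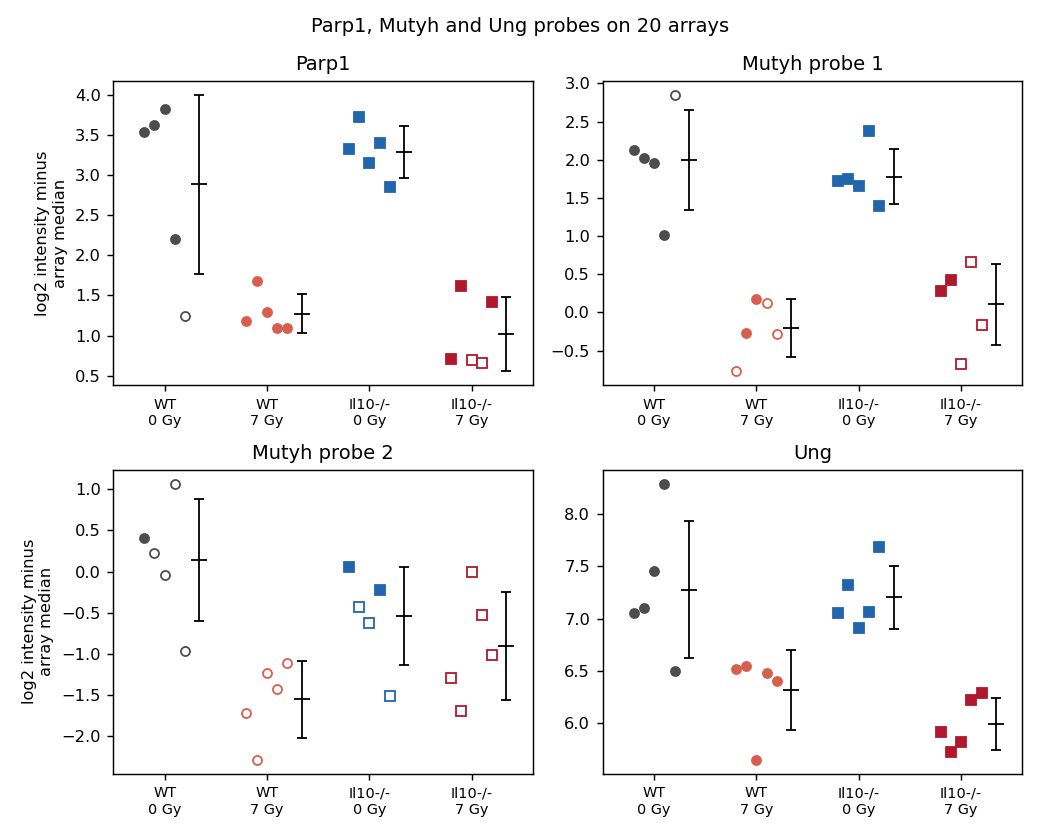
Levels of the Parp1, Mutyh and Ung probes (vertical axis, log2 intensity minus the array median) on the 5 arrays of each group, in replicate order from left to right, with the mean ± SD as a bar beside them; filled points were well above background. In Il10-/- mice the irradiated arrays of Parp1, Mutyh probe 1 and Ung all lie below the unirradiated arrays, and in WT mice those of both Mutyh probes do.

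The repeat at the end of the Ung probe is shared by probes of unrelated genes. Besides Ung, 70 tested probes, each for another gene name, held a run of at least 8 TG or GT units (16 bases); they were looked for after the Ung sequence had been seen. Of these 70, in Il10-/- mice, 65 were called lower after 7 Gy, 92.9% against 5.84% of all tested probes, and their median difference was -1.16 (log2). The Ung difference of -1.21 lay inside their range of -2.03 to -0.49, and 28 of the 70 were lower still. In WT mice their median was -1.03, all 70 had a lower mean, and 2 were called.

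Across the 20 arrays the Ung probe followed the median of these 70 probes with Pearson's r = 0.97, and r = 0.93 for deviations from the group means. The 3 genes whose brightest probes resembled Ung most closely were Zcchc9 (r = 0.995), Ms4a4c (r = 0.992) and Mtfr2 (r = 0.991), and all 3 of those probes hold the repeat. Their last 30 bases are printed for comparison, with the repeat in capitals.
Zcchc9 probe, last 30 bases: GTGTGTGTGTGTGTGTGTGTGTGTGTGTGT
Ms4a4c probe, last 30 bases: TGTGTGTatgcatttccctgggaaattaac
Mtfr2 probe, last 30 bases: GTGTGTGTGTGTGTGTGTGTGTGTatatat
The Ung value is therefore given as the reading of this probe, and the part of the repeat in it was not tested.

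**Figure D2:**
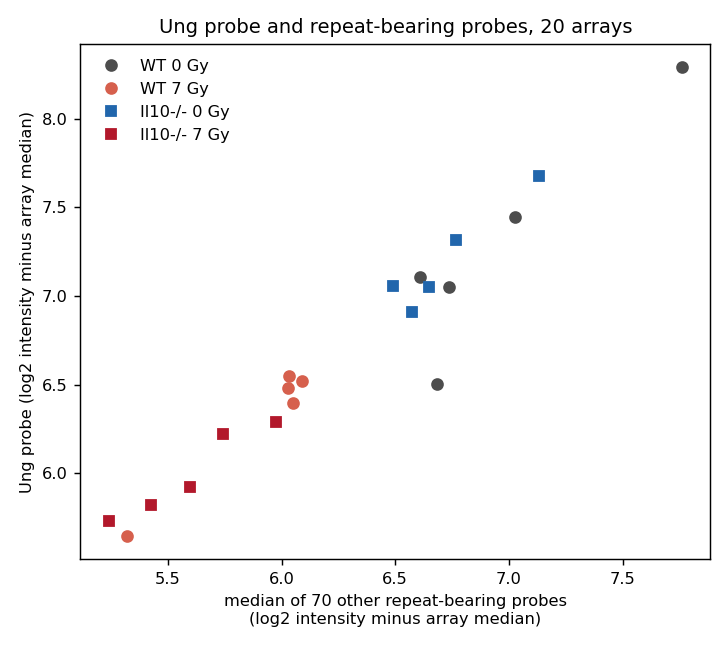
Level of the Ung probe (vertical axis) against the median level of the 70 other tested probes that carry the dinucleotide repeat (horizontal axis), both as log2 intensity minus the array median, for the 20 arrays by group. The points lie near a single line, with Pearson's r = 0.97.

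Apex1, the main nuclease for sites that have lost a base, had differences of opposite sign in the genotypes, neither of them called. In WT mice it read 2.59, 3.29, 2.98, 1.64 and 0.07 at 0 Gy, and 3.28, 3.38, 2.12, 2.35 and 2.39 at 7 Gy. In Il10-/- mice it read 2.91, 2.99, 2.57, 3.27 and 1.99 at 0 Gy, and 1.92, 2.40, 1.35, 2.00 and 1.53 at 7 Gy. All irradiated WT arrays were above the unirradiated WT mean, which rests in part on replicate 5, and all irradiated Il10-/- arrays were below theirs. The differences were 0.59 ± 0.55 (SE, log2) in WT mice and -0.91 ± 0.29 (SE, log2) in Il10-/- mice, adjusted p = 0.526 and 0.0442 by limma. The difference between the responses was -1.50 ± 0.66 (SE, log2), adjusted p = 0.681 by limma. Without WT 0 Gy replicate 5, whose Apex1 spot was not well above background, the WT difference was 0.08 and the difference between responses -0.99.

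Lig1, the ligase of long-patch repair and DNA replication, was not called in any comparison. In WT mice its probe read 11.20, 11.16, 11.04, 12.67 and 10.54 at 0 Gy, and 9.80, 9.58, 10.78, 11.81 and 10.86 at 7 Gy, with wide overlap. The difference was -0.76 ± 0.50 (SE, log2), adjusted p = 0.346 by limma. For Il10-/- mice it was -0.19 with a 95% interval of -0.74 to 0.37, and quantile normalization turned its sign to 0.20.

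Lig3, the ligase bound by Xrcc1, was not called by either of its probes. Probe 1 in Il10-/- mice read 1.67, 1.48, 0.86, 1.64 and 1.18 at 0 Gy, and 0.42, 0.41, 3.51, -0.79 and -1.22 at 7 Gy. The value of 3.51 came from replicate 3, the array with the second fewest spots above background, while the other irradiated arrays lay below all unirradiated ones. The difference was -0.90 ± 0.70 (SE, log2), adjusted p = 0.388 by limma, and without that array it was -1.66, adjusted p = 0.0105, and called. Probe 2 stood well above background on a single array of 20, in the WT 0 Gy group, so no fold is given for it. In WT mice probe 1 changed by 0.22 ± 0.58 (SE, log2), and by -0.33 without 0 Gy replicate 5.

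**Figure D3:**
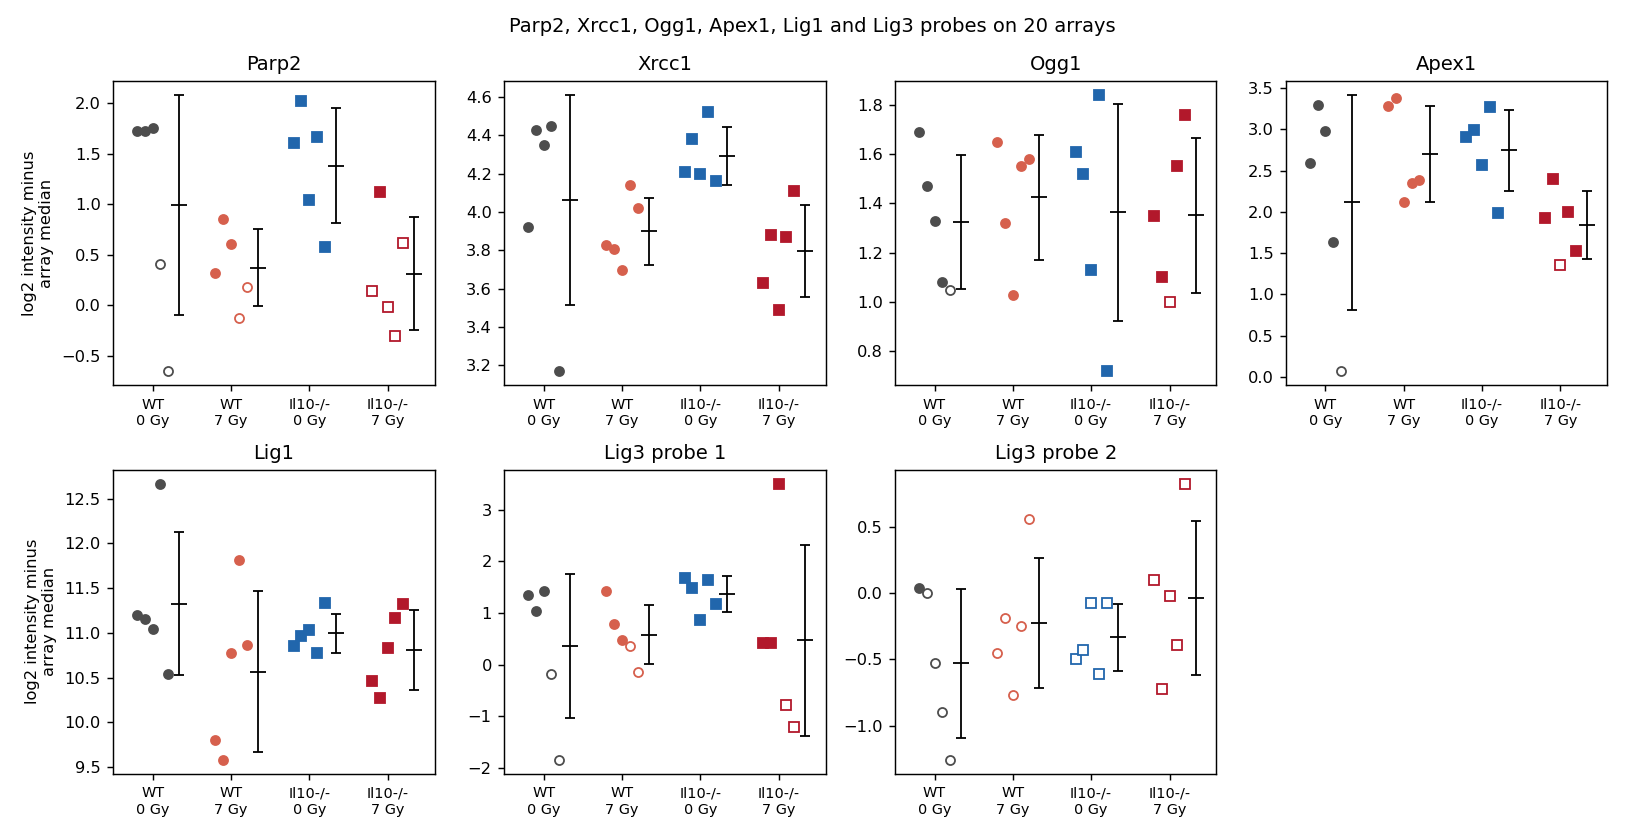
Levels of the other 7 probes (vertical axis, log2 intensity minus the array median, with a scale of its own for each probe) on the 5 arrays of each group in replicate order, with the mean ± SD as a bar beside them; filled points were well above background. The groups overlap in most panels, and single arrays set much of the spread for Apex1 and Lig3 probe 1.

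Taking the members as a set, 3 of the 9 tested probes (Parp1, Mutyh probe 1 and Ung) were called lower after 7 Gy in Il10-/- mice and none higher, where 5.84% of all tested probes were called lower and 9.13% in either direction. Leaving Ung aside for its repeat, 2 of 8 were called. In WT mice 1 of 9 (Mutyh probe 1) was called lower and none higher. Of all tested probes 2.31% were called lower there and 6.78% in either direction. Without WT 0 Gy replicate 5, 3 of 9 were called, where 1573 of all 18655 tested probes were called in either direction. An unadjusted p under 0.05 was found for 5 of the 9 in Il10-/- mice, beside 35.6% of all tested probes, and for 4 of 9 in WT mice, beside 29%. The groups did not overlap, with the irradiated arrays lower, for 4 of the 11 probes in Il10-/- mice (10.2% of the 23069 probes above background) and for 2 of 11 in WT mice (3.55%). The median difference over the 11 probes was -0.90 (log2) in Il10-/- mice and -0.62 in WT mice, beside -0.11 and 0.05 over all 23069 probes. Most member probes had a lower mean after irradiation, 10 of 11 in Il10-/- mice and 7 of 11 in WT mice, Ung included. The median over all 23069 probes was itself negative in Il10-/- mice, and their share with a lower mean was not counted.

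**Figure D4:**
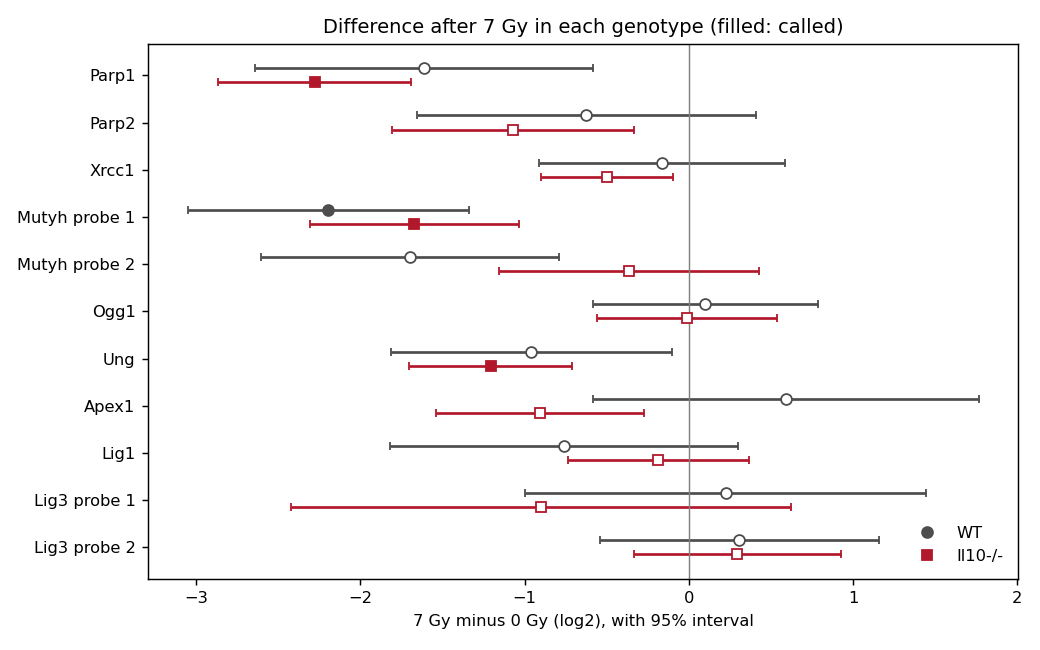
Difference between 7 Gy and 0 Gy (horizontal axis, log2) with its 95% interval for each of the 11 probes, in WT mice (circles) and Il10-/- mice (squares); filled symbols were called. Parp1, Mutyh probe 1 and Ung in Il10-/- mice and Mutyh probe 1 in WT mice were called, all lower, and the intervals of the genotypes overlap for every probe.

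Between genotypes no member was called. At 0 Gy the 9 tested probes included 0 called and 0 with p under 0.05, where 0.852% of all tested probes were called, all of them higher in Il10-/- mice, and 16.1% had p under 0.05. Lig3 probe 1 had the largest difference, 1.01 ± 0.54 (SE, log2) higher in mice labelled Il10-/-, adjusted p = 0.336 by limma. Without WT 0 Gy replicate 5 it was 0.46, and Mutyh probe 2 at -0.96 was then farther from 0. At 7 Gy 0 of 9 were called, against 0.0107% of all tested probes, and 1 had p under 0.05, beside 11.1% of all: Apex1 was -0.86 ± 0.32 (SE, log2), adjusted p = 0.403 by limma, and 4 of 5 irradiated Il10-/- arrays were below the lowest irradiated WT array for Apex1 (exact permutation p = 0.0317). The difference between the genotypes' responses was called for 0 of 18655 probes by limma, of which 7.15% had p under 0.05. Of the 9 members tested for that difference 2 had p under 0.05, Apex1 and Mutyh probe 2, the latter with 1.33 ± 0.56 (SE, log2), adjusted p = 0.681 by limma. The 95% intervals were wide, and these results do not show that the genotypes responded alike.

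In the order of group means, both unirradiated groups stood above both irradiated groups for Parp1, Parp2, Xrcc1, Mutyh, Ung and Lig1. The step from the lower unirradiated to the higher irradiated group lay within the spread for Parp2, Xrcc1, Mutyh probe 2 and Lig1. Its exact permutation p was 0.238, 0.571, 0.389 and 0.413 (n = 5 and 5), against 0.0238 for Parp1 and 0.00794 for Ung. For Parp1 the order was Il10-/- 0 Gy, WT 0 Gy, WT 7 Gy and Il10-/- 7 Gy. The unirradiated neighbours did not differ beyond their spread (exact permutation p = 0.508, n = 5 and 5), nor did the irradiated ones (exact permutation p = 0.302, n = 5 and 5). Mutyh probe 1 ran WT 0 Gy, Il10-/- 0 Gy, Il10-/- 7 Gy and WT 7 Gy. Here too only the step between the doses had an exact p under 0.05 (exact permutation p = 0.00794, n = 5 and 5). For Ogg1, Apex1 and Lig3 no such order was seen.

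Genes with the same pattern over the 20 arrays were sought for each called member, among 18801 genes, as a description with no test. The 3 most like Parp1 were Zfp318, Sbk1 and Foxo1, each with Pearson's r = 0.96. Among those most like Mutyh probe 1 were Mbd4 (r = 0.96) and Btla (r = 0.93). Mbd4 is another DNA glycosylase, while Btla is a surface molecule of lymphocytes.

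Genes of B cells moved with these members. Of 10 B-cell marker genes, 9 were called lower after 7 Gy in each genotype, with median differences of -2.90 (log2) in WT and -3.13 in Il10-/- mice. The mean level of the list ran from 4.57 to 6.02 over unirradiated WT arrays and from 2.18 to 3.00 over irradiated ones, and from 4.56 to 5.63 and 2.09 to 2.54 in Il10-/- mice, so that the doses did not overlap. Cd79a, Cd79b and Ms4a1, which mark the B lineage, were all among those called. Of 8 tested T-cell genes 1 was called lower in each genotype, and of 12 proliferation genes 1 in WT and 2 in Il10-/- mice. The mean was lower for 12 of 12 proliferation genes in WT and 10 of 12 in Il10-/- mice. Their median differences were -0.63 and -0.99 (log2). The mean of the T-cell list ran from 4.39 to 6.36 over unirradiated and 4.14 to 5.56 over irradiated WT arrays, which overlap, and from 5.98 to 6.29 and 4.83 to 5.79 in Il10-/- mice, which do not. Erythroid genes were also lower, with 3 of 9 tested called in WT and 5 of 9 in Il10-/- mice, and the doses did not overlap in Il10-/- mice (5.76 to 6.93 against 4.72 to 5.65 for the list's mean). Platelet genes had a higher mean after 7 Gy, from 7.29 to 8.86 against 9.03 to 10.14 in WT mice, without overlap, and none of 8 was called. In whole blood, fewer cells of a type and less RNA per cell cannot be told apart. The part of the B-cell, T-cell, proliferation, erythroid and platelet genes in the Parp1, Mutyh and Ung values was not tested.

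Genes of other tissues were also seen. The mean of 10 liver genes ran from -0.16 to 1.70 over unirradiated and 2.64 to 11.03 over irradiated WT arrays, without overlap, but from 1.91 to 9.34 and from 1.32 to 9.24 in Il10-/- mice, where the doses overlapped. That of 7 heart muscle genes ran from 0.22 to 3.03 over unirradiated and 0.77 to 8.23 over irradiated WT arrays, and from 0.27 to 3.89 and 2.27 to 8.0 in Il10-/- mice, overlapping in both. After 7 Gy, 7 of the 10 liver genes were called higher in WT mice and 0 in Il10-/- mice. Of the 7 heart muscle genes, 0 were called in WT mice and 5 were called higher in Il10-/- mice. Of all tested probes 4.47% were called higher in WT mice and 3.29% in Il10-/- mice. The part of liver and heart muscle genes in the values of the repair genes was not tested. Of markers of the labelled tissue, 9 of 10 B-cell genes, 6 of 7 neutrophil genes and 8 of 8 platelet genes were well above background on all 5 unirradiated WT arrays.

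The other genes of these pathways were each measured by their brightest probe, for 53 of the 54 genes on 5 lists, of which 35 passed both filters. In WT mice 1 was called lower and 2 higher, and in Il10-/- mice 1 lower and 1 higher, of 35 tested, where 6.78% and 9.13% of all tested probes were called. Mbd4, a glycosylase for mismatched thymine and uracil, was called lower in WT mice (-1.59 ± 0.35, SE, log2, adjusted p = 0.00749 by limma) and in Il10-/- mice had a difference of -1.10 that was not called, adjusted p = 0.0148 by limma. It was the lowest of the 7 measured glycosylases in both genotypes, while Neil2 at 0.75 in WT and Nthl1 at 0.79 in Il10-/- mice were the highest, neither of them called. None of 3 tested end-processing genes was called. Aptx, which was at -0.29 in WT mice, the lowest of the 6 measured, was the highest in Il10-/- mice at 0.26, where Tdp2 at -0.83 was the lowest.

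Among 11 tested genes of repair synthesis, Pold1, the catalytic subunit of DNA polymerase delta, was called lower in Il10-/- mice (-1.32 ± 0.26, SE, log2, adjusted p = 0.00503 by limma) and was at -1.46 in WT mice, not called, adjusted p = 0.0289 by limma. Polb, the gap-filling polymerase of short-patch repair, was the highest of that list, at 0.76 in WT and 0.43 in Il10-/- mice, and was not called. Of 6 tested ADP-ribose turnover genes, Macrod2, which removes ADP-ribose from proteins, was called higher in WT mice (1.71 ± 0.39, SE, log2, adjusted p = 0.00961 by limma). Its WT mean went from -1.63 at 0 Gy to 0.09 at 7 Gy, so it started below the median probe. In Il10-/- mice Macrod2 was at 1.05, not called, adjusted p = 0.0209 by limma. Parg at -0.45 in WT and Chd1l at -0.69 in Il10-/- mice were the lowest of that list, and Macrod1 at 1.96 was the highest in WT mice; none of these passed.

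Parp12, an interferon-induced PARP-family gene, rose after irradiation. It was called higher in both genotypes, by 2.47 ± 0.51 (SE, log2) in WT mice, adjusted p = 0.00531 by limma, and by 1.75 ± 0.29 (SE, log2) in Il10-/- mice, adjusted p = 0.00208 by limma. It was the only one called of 10 tested PARP-family genes, of which Parp8 at -0.79 in WT and Parp16 at -0.97 in Il10-/- mice were the lowest. The median differences of the 5 lists lay between -0.06 and 0.64 in WT mice and between -0.62 and 0.14 in Il10-/- mice, beside 0.05 and -0.11 over all probes above background.

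**Figure D5:**
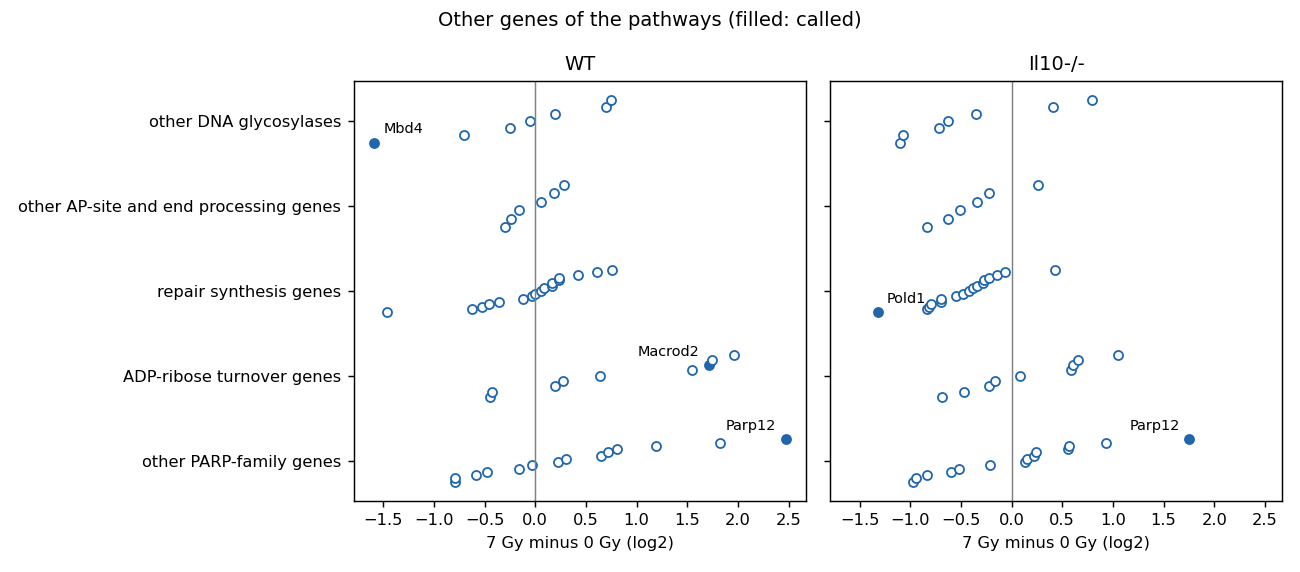
Difference between 7 Gy and 0 Gy (horizontal axis, log2) for each measured gene of 5 lists of other repair and ADP-ribose genes (rows), in WT mice (left) and Il10-/- mice (right); filled points were called and are named. Mbd4, Macrod2 and Parp12 were called in WT mice, and Pold1 and Parp12 in Il10-/- mice.

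The promoters of Parp1 and Mutyh are shown because both genes were called lower after irradiation in Il10-/- mice. They are the 250 bases before each gene's start on the plus strand, from RefSeq on the GRCm38.p6 build, with matches to the GC box (GGGCGG) and the CCAAT box (CCAAT), on either strand, in capitals.
Parp1 promoter, chr1:180568641-180568890: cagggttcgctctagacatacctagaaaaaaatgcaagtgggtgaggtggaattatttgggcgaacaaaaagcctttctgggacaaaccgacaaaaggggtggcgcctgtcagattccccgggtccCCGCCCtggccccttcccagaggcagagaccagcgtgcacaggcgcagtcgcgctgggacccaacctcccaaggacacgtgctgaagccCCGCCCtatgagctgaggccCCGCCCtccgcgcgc
Mutyh promoter, chr4:116807484-116807733: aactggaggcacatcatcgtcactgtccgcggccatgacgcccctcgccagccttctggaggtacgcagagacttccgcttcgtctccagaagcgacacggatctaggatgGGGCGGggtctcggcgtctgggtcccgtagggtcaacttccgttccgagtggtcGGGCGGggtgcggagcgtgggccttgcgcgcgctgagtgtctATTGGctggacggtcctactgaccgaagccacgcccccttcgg
These 250 bases hold 3 GC boxes for Parp1, and 2 GC boxes and 1 CCAAT box for Mutyh. In windows of 300 bases reaching 50 bases past the start, 9 of the 12 listed promoters of the 9 genes held a GC box, as did 35.7% of all 32851 promoters, and 5 of 12 held a CCAAT box, as did 37.4%. The GC content of these 12 ran from 43.7% to 65%, with 9 above the median of 52.7% over all promoters. The E2F sequences TTTCGCGC, TTTGGCGC and TTTCCCGC matched for Lig1 alone (1.84% of all promoters), CCGGAAGT for Ogg1 alone (3.89%), and the p53 half-site by name for none (8.36%). A match of letters is a description and not a binding site.

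Mutyh and Apex1 begin next to a gene on the other strand that the array also measured. Toe1 starts 175 bases from Mutyh and Osgep 56 bases from Apex1 on GRCm38.p6. Toe1 was not called in either genotype: its difference after 7 Gy was -0.43 ± 0.54 (SE, log2) in WT mice and 0.51 ± 0.72 (SE, log2) in Il10-/- mice, adjusted p = 0.644 and 0.645 by limma. Osgep was at 0.21 in WT and -0.55 in Il10-/- mice, with the signs that Apex1 had, adjusted p = 0.792 and 0.117 by limma.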

How the data were processed

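RNA of 20 whole-blood samples was read on single-colour Agilent mouse arrays. The deposited intensity values (processed signals) were background-subtracted and detrended by Agilent Feature Extraction, version 10.7 per the labels and 12.0.2.2 per the file headers. The authors also deposited a table of log2 values, median normalized and filtered in BRB-ArrayTools, which was used as an alternative. Here log2 of the intensity was taken, non-uniform outlier spots were left out, spots of a probe were averaged, and each array's median over 39429 non-control probes was subtracted. Filters left 23069 and then 18655 probes.

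Groups were compared in pairs with limma 3.58.1 in R 4.3.3 (Benjamini-Hochberg over all probes tested, called at p under 0.001 and adjusted p under 10%), and the difference between responses in 1 fit of 20 arrays. The code was tested on simulated data. Exact permutation tests used all 252 splits, so no p could fall below 0.00794. P-values measure the spread between these samples, which may in part be technical, since replicates 1 and 2 of each group were close to repeated-spot noise. The number of arrays limits the precision.

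The members and gene lists were chosen with earlier results of these data known. Named were all member probes, called genes and the extremes of each pathway list, marker lists, head-to-head neighbours, and the 3 genes most like each called member, some of which are not reported here. Same-numbered arrays shared a slide and a scan, 1 array of each group per slide. Deviations of same-numbered arrays from their group means correlated at r between -0.661 and 0.684, and all 5 were over 0.1 for none of the group pairs, so the numbers were not taken to pair the mice. Alternatives covered scaling, background correction, filters, the slide as a block, thresholds, left-out arrays and averaged replicates 1 and 2.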

Additional observations from a re-analysis of the deposited data

Results flagged for a closer look

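For the Ung probe, the irradiated WT array of replicate 3 lay apart from the others of its group, at 5.65 (log2 over the array median) against 6.4 for the nearest. It was 1 of 44 sets of 5 arrays to stand out in this way, and chance alone gives about 1 in 20. The median of the 70 other repeat-bearing probes was also lowest on that array, at 5.32 against 6.03 to 6.09 on the other irradiated WT arrays.

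The measured difference between the genotypes' responses to 7 Gy was -1.50 (log2) for Apex1 and was not called. It had p under 0.05 unadjusted and an adjusted p of 0.681 by limma over all probes tested. Of all tested probes 7.15% had p under 0.05. Without WT 0 Gy replicate 5, whose Apex1 spot was not well above background, the difference was -0.99.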

How the results depend on the processing

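In WT mice the count of member probes called after 7 Gy, 1 in the analysis as reported, was 3 with the 75th percentile subtracted, with scaling to 1 reference array, with quantile normalization, with the authors' processed values, with all 4 groups in 1 fit, at a false discovery rate under 5% alone, and without the 2 weakest arrays (chosen after seeing the data). It was 2 without the 1.5-fold filter and 0 with normexp. Of all tested probes, in the same order, 1553 of 17249, 1830 of 16574, 1400 of 17122 and 1766 of 16866 were called. The next 3 settings called 2119, 2721 and 1573 of 18655, against 1265 of 18655 as reported. Without the 1.5-fold filter 1342 of 23069 were called. With normexp 261 of 11440 were called, and 6 member probes were tested. In Il10-/- mice the count of 3 became 0 with normexp and 5 at a false discovery rate under 5% alone. It was 2 with quantile normalization, which lost Mutyh probe 1, and 2 with replicates 1 and 2 averaged, which lost Ung. Normexp called 0 of all 11440 tested probes there, 6 of them members, so its 0 does not set these genes apart. The other 3 settings called 4054 of 18655, 1674 of 17122 and 813 of 18655, against 1703 of 18655 as reported. The counts ranged from 1 to 3 in WT mice and from 3 to 4 in Il10-/- mice when single arrays were omitted. With the slide as a replicate block the counts were 1 and 3. The cause of these changes was not tested.

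Signs turned for several differences, not all of them small. As reported, Lig3 probe 1 was at -0.90 in Il10-/- mice and at -1.12 for the difference between responses. The authors' values are blank for Lig3 probe 1 on 3 arrays, WT 0 Gy replicate 5 and Il10-/- 7 Gy replicates 4 and 5. For Mutyh probe 2 they are blank on 4 arrays, WT 7 Gy replicate 2 and Il10-/- 7 Gy replicates 3, 4 and 5. The genotype difference at 0 Gy became -0.05 for Parp1 with the authors' values, -0.002 for Parp1 and -0.02 for Parp2 without the 2 weakest arrays, and 0.18 for Mutyh probe 1 and 0.05 for Ung with normexp. At 7 Gy it became 0.02 for Parp2 without the 2 weakest arrays, -0.08 for Mutyh probe 1 with quantile normalization, -0.10 for Mutyh probe 2 and 0.93 for Lig3 probe 1 with the authors' values, 0.03 for Lig3 probe 1 with replicates 1 and 2 averaged, and -0.67 for Lig1 with normexp. The WT response became 0.25 for Xrcc1 with normexp, and for Lig3 probe 1 -0.0019 at the 75th percentile, -0.18 with the authors' values and -0.33 without the 2 weakest arrays. The Il10-/- response became 0.20 for Lig1 with quantile normalization and 0.34 for Lig3 probe 1 with the authors' values. The difference between responses became 0.05 for Parp2 and 0.16 for Lig3 probe 2 without the 2 weakest arrays, -0.17 for Mutyh probe 1 and -0.43 for Lig1 with normexp, 0.01 and 0.18 for Ung at the 75th percentile and with quantile normalization, and 0.52 for Lig3 probe 1 with the authors' values.

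With 1 array left out, the genotype difference at 0 Gy ran from -0.002 to 0.64 for Parp1, -0.02 to 0.59 for Parp2, -0.27 to 0.18 for Ung and -0.53 to 0.01 for Lig1. At 7 Gy it ran from -0.26 to 0.10 for Parp2, -0.0038 to 0.55 for Lig1, -0.87 to 0.31 for Lig3 probe 1 and -0.03 to 0.38 for Lig3 probe 2. The WT response of Lig3 probe 1 ran from -0.33 to 0.49, and the difference between responses of Lig3 probe 2 from -0.23 to 0.18.

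Across alternatives the adjusted p by limma for Parp1 in Il10-/- mice ranged from 8.13e-05 to 0.943. It ranged there from 0.00124 to 0.943 for Mutyh probe 1 and from 0.00151 to 0.943 for Ung. The highest of each came with normexp. The differences in Il10-/- mice ran from -2.43 to -0.97 (log2) for Parp1 and from -1.3 to -1.06 for Ung. In WT mice the adjusted p by limma ranged from 9.97e-05 to 0.514 for Mutyh probe 1. For Parp1 in WT mice the difference ran from -2.02 to -0.43 (log2), adjusted p = 0.00358 to 0.482 by limma. Among all called probes in WT mice 65.9% were higher, against 51.1% at the 75th percentile, 50.4% with quantile normalization, 98.5% with normexp and 44.2% without the 2 weakest arrays. In Il10-/- mice 36.0% were higher, against 52.0% with the authors' values and 50.3% with the reference array. Dim probes, Mutyh probe 2 and Lig3 probe 2 above all, are limited by signal over background.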
